A study of Mus musculus with 12 samples.

Results

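The motile axoneme and dynein assembly genes, 43 in number, were followed through newborn lung and liver of Man1a2 WT and null mice. The members were listed by name as axonemal and dynein assembly genes, with the dynein heavy chains left out, and all 43 were found among the 24421 gene rows of each library, 41 by their listed symbol and 2 (Dnai1 and Dnai2) under the earlier symbols Dnaic1 and Dnaic2. Each was placed in 1 of 9 parts of the axoneme: 6 dynein chains, 7 dynein assembly factors, 3 outer arm docking genes, 2 rulers, 4 genes of the nexin-dynein regulatory complex, 5 of the radial spokes, 7 of the central pair, 6 tektins and proteins of the doublet lumen, and 3 other axonemal proteins.

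The study sequenced polyadenylated RNA of liver and lung tissue from 3 Man1a2+/+ (WT) and 3 Man1a2-/- (null) newborn mice, so that each of the 4 groups held 3 libraries. The pups came from heterozygous Man1a2 parents of the Man1a2tm1.1Ahe line, a germline allele that lacks exon 2, and the organs were taken 30 to 60 min after birth. Man1a2 encodes a Golgi mannosidase that trims N-linked glycans, and the null pups die around birth with abnormal lungs. The libraries were strand-specific, were read as pairs of 75 bp, and were deposited as a raw read count for each gene symbol.

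The axoneme is the microtubule core of a motile cilium, with outer doublets that slide against each other under the force of dynein arms. Docking proteins hold the outer arms on the doublet, ruler proteins set the repeat along it, and the radial spokes, the nexin-dynein regulatory complex and the central pair time the beat, while the dynein assembly factors put arms together in the cytoplasm before transport. In lung these genes are known for their use in the multiciliated cells of the airway lining, and loss of many of them causes primary ciliary dyskinesia.

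Depth ran from 26759463 to 42914295 counted reads per library, so that 3 reads stood at 0.0699 to 0.112 CPM (counts per 1000000 reads). Man1a2 reads were still counted in null mice, at 56.7 to 66.3 CPM in null against 99.5 to 141 CPM in WT lung and at 36.8 to 40.4 CPM in null against 40.7 to 67.5 CPM in WT liver, and the genotypes did not overlap in either tissue (log2 fold change -1.01 ± 0.18 in lung, adjusted p = 0.0614, and -0.47 ± 0.17 in liver, adjusted p = 0.0809, edgeR). These counts cover the whole gene and not exon 2 alone, so that they check the labels only in part. The library labelled null lung 1 stood apart from the other 5 lungs, with a mean correlation of log2 CPM of 0.847 with them where each of the others had 0.948 to 0.952. Its markers also went against the label lung. Its 5 alveolar type 2 markers, led by Sftpc, summed to 98.9 CPM against 22300 to 30700 CPM in the other lungs, and its 5 alveolar type 1 markers to 384 CPM against 2040 to 2560 CPM. It also held 16900 CPM of 4 muscle markers (216 to 607 CPM elsewhere), 228 CPM of 3 basal cell markers (0.585 to 2.15 CPM) and 558 CPM of 3 neuroendocrine markers (7.21 to 10.5 CPM). No defining alveolar marker was at 0 in it. The 5 airway secretory markers summed to 5630 CPM in it and to 3270 to 5830 CPM in the other lungs, but they were made up differently, with Scgb1a1 at 251 CPM (1980 to 2810 CPM elsewhere), Scgb3a1 at 1810 CPM (2.11 to 75.6 CPM) and Bpifa1 at 36.3 CPM (0.0468 to 0.548 CPM). The calls and medians in lung are therefore given with and without this library, and the part of its tissue makeup in these results was not tested. Null liver 1 held 3700 CPM of the muscle markers against 2.16 to 2.76 CPM in the other livers.

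All 43 members passed the filter on low counts in lung, where each had at least 28 reads in every library. Of these, 34 had a higher mean in null lung and 9 a lower one, with a median log2 fold change of 0.70 (1.62-fold), against a median of 0.06 over the 15591 genes tested. The 3 null lungs all lay above the 3 WT lungs for 24 members (55.8%) and all below them for 3 (6.98%), whereas over all genes tested the null lungs lay above in 16.6% and below in 19.5%. None of the 43 was called by edgeR's quasi-likelihood test with all 6 lungs (adjusted p under 0.05 and at least 1.2-fold), in a comparison that called 51 genes (0.327%). Of the members, 22 had an unadjusted p under 0.05, of which 20 were higher and 2 lower in null lung (against 12.9% and 12.1% of all genes), and DESeq2 called 17 (16 higher, 1 lower) where it called 7.3% of all genes higher and 7.78% lower. In bulk lung tissue, more multiciliated cells and more axonemal RNA per multiciliated cell cannot be told apart, nor can a different share of airway in the piece of lung taken.

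Without null lung 1, edgeR called 22 of the 43 members. Of these, 18 rose (41.9% of the members, against 18% of all genes) and 4 fell (9.3%, against 19% of all genes), and 37% of all genes were called in either direction. The median log2 fold change of the members was then 0.61, against -0.01 over all genes. The shift toward higher levels in null lung was therefore of nearly the same size with and without the library that lacked the alveolar markers, and it was the number of calls that depended on it.

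**Figure D1:**
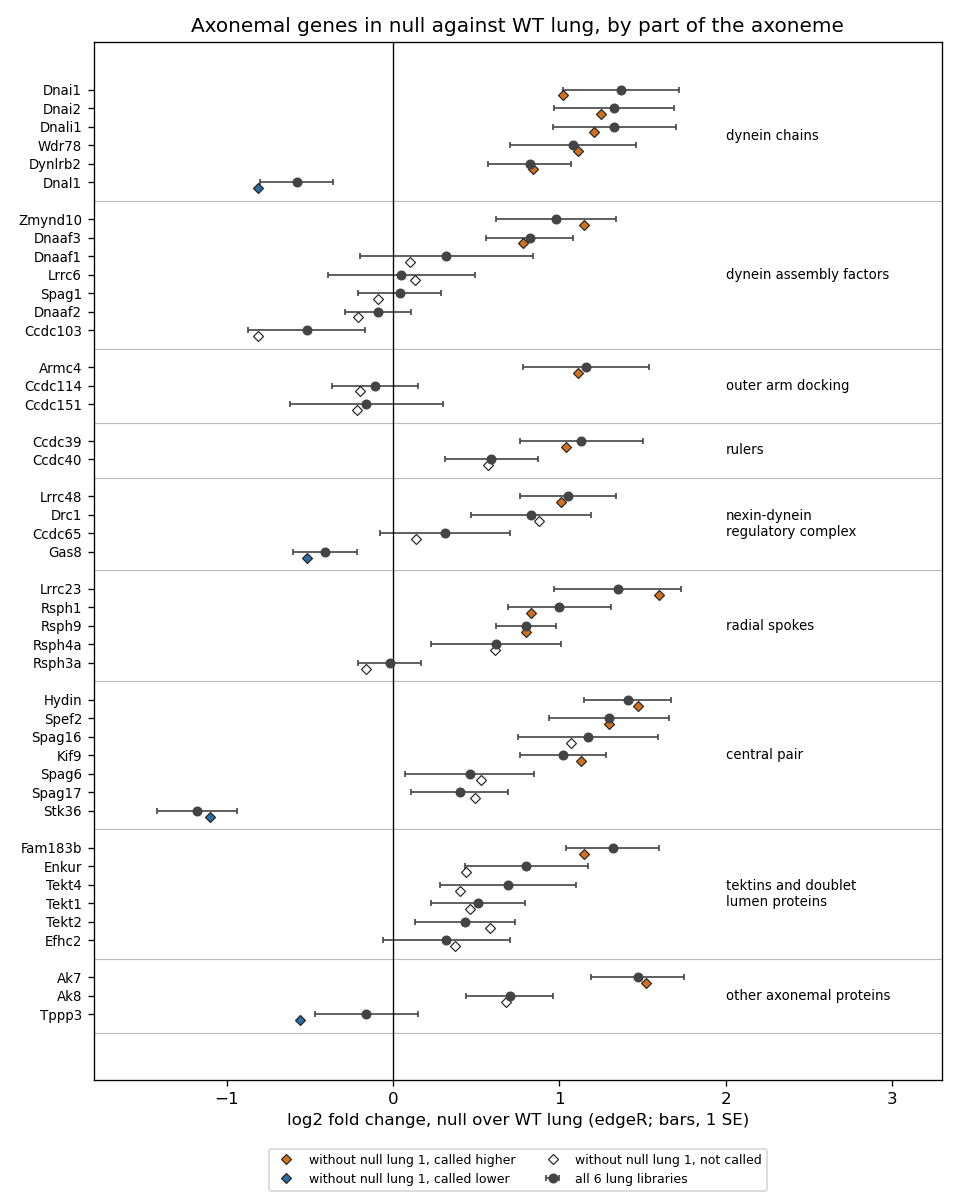
Log2 fold change of each of the 43 genes in null over WT lung (x axis), grouped by part of the axoneme. Grey circles with bars give the estimate and 1 SE from all 6 libraries, and diamonds the estimate without null lung 1, orange where the gene was called higher (18 genes), blue where it was called lower (4 genes) and white where it was not called. In most parts 1 or 2 genes lie at or left of 0 while the others lie right of it.

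Among the dynein chains, 5 of 6 members lay higher in every null lung than in any WT lung and 1 lay lower, with a median log2 fold change of 1.21. Below, CPM values are given for replicates 1, 2 and 3 of each group in that order. Dnai1 (Dnaic1, chr4:41569775-41638158), an intermediate chain of the outer arm, stood at 1.92, 2.15 and 2.55 CPM in the WT lungs and 8.15, 4.8 and 4.14 CPM in the null lungs. Dnai2 (Dnaic2, chr11:114727408-114757889), its partner intermediate chain, stood at 2.99, 7.45 and 5.6 CPM in the WT lungs and 15, 13 and 12.3 CPM in the null lungs. The null lungs exceeded every WT lung for both chains, with log2 fold changes of 1.37 ± 0.35 (SE) for Dnai1 and 1.33 ± 0.36 for Dnai2 and adjusted p-values of 0.0967 and 0.108. The inner arm light intermediate chain Dnali1 had 3.11, 7.87 and 5.72 CPM in the WT lungs and 16.3, 13.3 and 12.3 CPM in the null lungs, and the inner arm intermediate chain Wdr78 had 2.39, 5.93 and 3.74 CPM in the WT lungs and 8.3, 10 and 7.21 CPM in the null lungs. Dynlrb2, a roadblock-type light chain, had 8.75, 16.3 and 13.4 CPM in the WT lungs and 22.2, 23.2 and 22.4 CPM in the null lungs. These 3 also separated the genotypes completely, at 1.33 ± 0.37, 1.08 ± 0.38 and 0.82 ± 0.25 on the log2 scale. Dnal1 (chr12:84114366-84147498), a light chain that binds the motor head of an outer arm heavy chain, went the other way, with 24.1, 27.2 and 25 CPM in the WT lungs and 21.9, 13 and 16 CPM in the null lungs. Its null lungs all lay below the WT lungs, with a log2 fold change of -0.58 ± 0.22 with all libraries (adjusted p = 0.18) and of -0.81 ± 0.15 without null lung 1 (adjusted p = 0.00542). Without that library all 6 chains passed the test, 5 higher and Dnal1 lower.

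The dynein assembly factors had a median log2 fold change of 0.05, and 2 of 7, Zmynd10 and Dnaaf3, lay higher in all 3 null lungs. Zmynd10 (chr9:107547298-107551319) had 2.41, 5.37 and 3.89 CPM in the WT lungs and 5.8, 8.43 and 8.75 CPM in the null lungs, and Dnaaf3 (chr7:4522933-4532453) had 2.67, 3.47 and 3.22 CPM in the WT lungs and 5.84, 4.44 and 6.24 CPM in the null lungs. Their log2 fold changes were 0.98 ± 0.36 and 0.82 ± 0.26, and without null lung 1 both rose, at 1.15 ± 0.31 (adjusted p = 0.023) and 0.78 ± 0.23 (adjusted p = 0.035). Dnaaf3 shares 86 exonic bases on the same strand with Tnni3, a cardiac troponin gene. Tnni3 stood at 19.3, 25.1 and 26.3 CPM in the WT lungs and 938, 55.9 and 36.5 CPM in the null lungs. Tnni3 thus also lay higher in all null lungs, at 0.97 ± 0.21 without null lung 1 (adjusted p = 0.00997, edgeR). Dnaaf3 in null lung 1 lay between the other null lungs, and the part of shared reads in the level of Dnaaf3 was not tested. Dnaaf1, a leucine-rich repeat factor, had 0.702, 2.5 and 1.68 CPM in the WT lungs and 2.65, 1.91 and 1.54 CPM in the null lungs, and Lrrc6, another of that kind, had 1.54, 4.89 and 3.42 CPM in the WT lungs and 3.03, 3.71 and 3.44 CPM in the null lungs. Both overlapped between the genotypes, at 0.32 ± 0.52 and 0.05 ± 0.44. The co-chaperone subunit Spag1 had 3.84, 4.68 and 4.03 CPM in the WT lungs and 5.04, 4.07 and 3.75 CPM in the null lungs. Dnaaf2, a factor that works with chaperones, had 9.05, 9.57 and 10.1 CPM in the WT lungs and 10.5, 8.3 and 8.24 CPM in the null lungs. Neither separated the genotypes, and their log2 fold changes were 0.04 ± 0.25 and -0.09 ± 0.20. Ccdc103, which stabilises dynein arms on the doublet, had the lowest value of the part, at 1.54, 2.25 and 2 CPM in the WT lungs and 1.86, 1.12 and 1.07 CPM in the null lungs, a log2 fold change of -0.52 ± 0.35 (adjusted p = 0.39) with overlapping genotypes.

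Of the 3 outer arm docking genes, 1 separated the genotypes. Armc4, which helps to place the docking complex, had 1.26, 3.09 and 2.55 CPM in the WT lungs and 5.61, 5.27 and 4.56 CPM in the null lungs, and its null lungs all lay above the WT lungs, by 1.16 ± 0.38 on the log2 scale. Ccdc114, a coiled-coil subunit of the docking complex, had 4.16, 6.17 and 5.98 CPM in the WT lungs and 5.68, 4.75 and 4.7 CPM in the null lungs. Ccdc151, which is needed to place Ccdc114, had 1.31, 4.02 and 3.31 CPM in the WT lungs and 2.8, 2.87 and 2.02 CPM in the null lungs. Both overlapped between the genotypes, at -0.11 ± 0.26 and -0.16 ± 0.46. Without null lung 1 Armc4 rose, at 1.11 ± 0.35 (adjusted p = 0.0424), while Ccdc114 and Ccdc151 stood at -0.20 ± 0.23 and -0.22 ± 0.45 and did not pass the test.

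Both rulers, the coiled-coil pair that fixes the axonemal repeat, were higher in every null lung. Ccdc39 (chr3:33812362-33844310) had 3.58, 8.08 and 5.28 CPM in the WT lungs and 13.9, 14.2 and 8.87 CPM in the null lungs, and Ccdc40 (chr11:119228572-119265238) had 6.62, 13.6 and 10.1 CPM in the WT lungs and 15.7, 15.1 and 14.7 CPM in the null lungs. The log2 fold changes were 1.13 ± 0.37 and 0.59 ± 0.28, and without null lung 1 Ccdc39 passed the test (adjusted p = 0.0486) and Ccdc40 did not (adjusted p = 0.142). Ccdc39 shares 1256 exonic bases with Ttc14 on the opposite strand, whose levels overlapped between the genotypes (34.9 to 47.9 CPM in WT and 35.1 to 43.6 CPM in null lung).

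Of the 4 genes of the nexin-dynein regulatory complex, the link between neighbouring doublets, Lrrc48 (Drc3, chr11:60353329-60394341) had the largest log2 fold change, with 7.44, 14.5 and 14.1 CPM in the WT lungs and 26.4, 26 and 22.1 CPM in the null lungs. Drc1, the scaffold of the complex, had 3.21, 7.83 and 6.88 CPM in the WT lungs and 9.97, 10.1 and 11.8 CPM in the null lungs. Both lay higher in all null lungs, by 1.05 ± 0.29 and 0.83 ± 0.36. Lrrc48 rose without null lung 1, at 1.01 ± 0.27 (adjusted p = 0.0247), and Drc1, at 0.88 ± 0.34, did not pass the test (adjusted p = 0.0784). Ccdc65 had 1.45, 3.33 and 3.02 CPM in the WT lungs and 3.94, 2.77 and 2.92 CPM in the null lungs, and the genotypes overlapped with a log2 fold change of 0.31 ± 0.39, or 0.14 ± 0.36 without null lung 1. Gas8 (chr8:123518834-123536650), a subunit that also links to microtubules outside motile cilia, had 14.3, 15.3 and 16.1 CPM in the WT lungs and 13.1, 9.35 and 11.9 CPM in the null lungs. Its null lungs all lay below its WT lungs, with a log2 fold change of -0.41 ± 0.19 with all libraries (adjusted p = 0.243) and of -0.52 ± 0.17 without null lung 1, where the fall passed the test (adjusted p = 0.0433).

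Among the radial spoke genes, 3 of 5 lay higher in all null lungs. Lrrc23 (chr6:124769863-124779727), a spoke protein, had 8.7, 19.2 and 13.8 CPM in the WT lungs and 22.3, 40.7 and 43 CPM in the null lungs, and here null lung 1 was the lowest of the null lungs. Rsph1, a spoke head protein, had 5.59, 11 and 9.86 CPM in the WT lungs and 21.5, 15.5 and 15.8 CPM in the null lungs, and Rsph9, another head protein, had 6.04, 7.04 and 7.19 CPM in the WT lungs and 11.7, 11.4 and 12.2 CPM in the null lungs. The log2 fold changes were 1.35 ± 0.38, 1.0 ± 0.31 and 0.80 ± 0.18, and all 3 rose without null lung 1 (adjusted p = 0.00482, 0.0454 and 0.00873). Rsph9 had the tightest groups of these, with an SD of 0.629 CPM in WT and 0.38 CPM in null lung. The head protein Rsph4a had 4.02, 11.5 and 8.79 CPM in the WT lungs and 12.8, 13.2 and 11.4 CPM in the null lungs, and WT lung 2 reached into the null range. Rsph3a, a stalk protein, had 11.7, 11.8 and 10.8 CPM in the WT lungs and 13.3, 10.3 and 10.2 CPM in the null lungs, a log2 fold change of -0.02 ± 0.19. Reads of Rsph3a may be shared with its near-identical copy Rsph3b, so its level is uncertain.

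The central pair genes held both the lowest p-value by edgeR and the lowest log2 fold change of the 43. Hydin (chr8:110266977-110610253), a giant protein of the central pair projections, had 3.06, 4.71 and 3.74 CPM in the WT lungs and 9.4, 12 and 9.21 CPM in the null lungs, a log2 fold change of 1.41 ± 0.26 (2.65-fold, adjusted p = 0.0649). Spef2, a projection protein, had 1.8, 4.23 and 3.22 CPM in the WT lungs and 7.77, 8.51 and 6.53 CPM in the null lungs, and Spag16, a central pair bridge protein, had 2.41, 6.76 and 6.59 CPM in the WT lungs and 13.6, 11.3 and 10.6 CPM in the null lungs. The kinesin Kif9 had 2.67, 3.71 and 3.34 CPM in the WT lungs and 5.53, 7.73 and 6.43 CPM in the null lungs. All 4 lay higher in every null lung than in any WT lung, and the last 3 differed by 1.30 ± 0.36, 1.17 ± 0.42 and 1.02 ± 0.26. The central pair proteins Spag6, with 3.16, 8.15 and 7.98 CPM in the WT lungs and 8.07, 9.82 and 8.65 CPM in the null lungs, and Spag17, with 3.18, 5.69 and 4.99 CPM in the WT lungs and 5.38, 6.63 and 6.29 CPM in the null lungs, overlapped between the genotypes. The symbol Spag6 stands for either of 2 loci in RefSeq, so that its position is not given. Stk36 (chr1:74601445-74636894), a kinase needed to build the central pair, had 10.2, 13.8 and 14.9 CPM in the WT lungs and 5.08, 5.33 and 6.7 CPM in the null lungs. Every null lung lay below every WT lung, with a log2 fold change of -1.18 ± 0.24 with all libraries (0.441 of the WT level, adjusted p = 0.0735) and of -1.10 ± 0.22 without null lung 1 (adjusted p = 0.00823). Without null lung 1, Hydin, Spef2 and Kif9 rose and Stk36 fell, while Spag16 missed the threshold (adjusted p = 0.0648).

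All 6 tektins and doublet lumen proteins had higher means in null lung, and 3 of them separated the genotypes. Fam183b (chr11:58792797-58801960) had 2.99, 4.51 and 4.79 CPM in the WT lungs and 12.5, 9.19 and 8.94 CPM in the null lungs, a log2 fold change of 1.32 ± 0.28 (adjusted p = 0.0781). Tekt1, a filament protein of the doublet, had 5.29, 9.36 and 9.17 CPM in the WT lungs and 12.1, 9.66 and 12.1 CPM in the null lungs. Enkur, a lumen protein, had 3.56, 6.38 and 5.28 CPM in the WT lungs and 12.8, 7.31 and 6.41 CPM in the null lungs, and its highest value was that of null lung 1. Tekt2 had 4.84, 7.73 and 7.92 CPM in the WT lungs and 7.09, 8.93 and 11.5 CPM in the null lungs, and Tekt4 had 3.16, 7.87 and 5.77 CPM in the WT lungs and 12.3, 6.79 and 7.94 CPM in the null lungs. Efhc2 had 0.655, 1.49 and 0.986 CPM in the WT lungs and 1.25, 1.46 and 1.19 CPM in the null lungs. These last 3 overlapped between the genotypes. The 5 genes other than Fam183b differed by 0.32 to 0.80 on the log2 scale, and without null lung 1 Fam183b rose (adjusted p = 0.00834) and the other 5 did not pass the test.

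Of the other axonemal proteins, the adenylate kinase Ak7 (chr12:105705976-105782447) had the largest log2 fold change of all 43 members, with 4.8, 7.87 and 9.54 CPM in the WT lungs and 19.1, 20.9 and 21.5 CPM in the null lungs, a difference of 1.47 ± 0.28 (2.77-fold, adjusted p = 0.0687). Ak8, a second adenylate kinase, had 2.85, 4.26 and 4.21 CPM in the WT lungs and 6.33, 5.61 and 6.46 CPM in the null lungs. The null lungs lay above the WT lungs for both, and the difference in Ak8 was 0.70 ± 0.26. Ak7 rose without null lung 1, at 1.52 ± 0.26 (adjusted p = 0.00476), while Ak8 stood at 0.68 ± 0.24 and missed the threshold (adjusted p = 0.0547). Tppp3, a tubulin-binding protein that is also made outside multiciliated cells, was the most abundant member per length, with 148, 168 and 119 CPM in the WT lungs and 194, 100 and 96.4 CPM in the null lungs. Its genotypes overlapped with all libraries, at -0.16 ± 0.31, and without null lung 1, whose value was the highest of the 6, it fell, at -0.56 ± 0.15 (adjusted p = 0.0215).

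**Figure D2:**
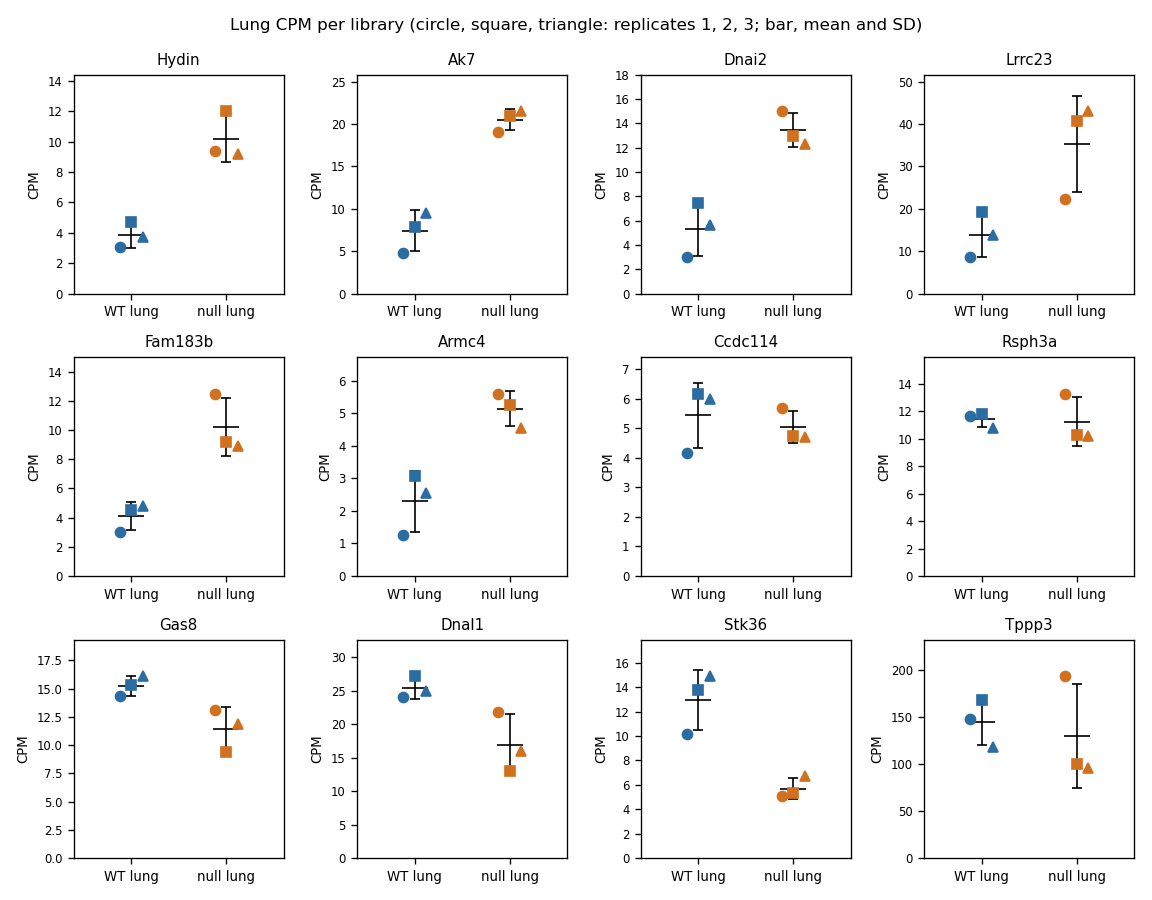
CPM (y axes, from 0) of 12 members in each WT lung (blue) and null lung (orange), with circles, squares and triangles for replicates 1, 2 and 3 and a bar for the mean and SD. Hydin, Ak7, Dnai2, Lrrc23, Fam183b and Armc4 lie higher in all null lungs, Gas8, Dnal1 and Stk36 lie lower in all of them, and Ccdc114, Rsph3a and Tppp3 overlap.

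Set side by side, the parts ran from the dynein chains (median log2 fold change 1.21, range -0.58 to 1.37) and the central pair (1.02, -1.18 to 1.41) through the rulers (0.86), the radial spokes (0.80, -0.02 to 1.35), the other axonemal proteins (0.70, -0.16 to 1.47), the tektins and lumen proteins (0.60, 0.32 to 1.32) and the regulatory complex (0.57, -0.41 to 1.05) to the assembly factors (0.05, -0.52 to 0.98) and the docking genes (-0.11, -0.16 to 1.16). The range within most parts was wider than the distance between their medians, and each part holds 2 to 7 genes, so that this order is a description. Without null lung 1 the medians, in the same order, were 1.07 for the dynein chains, 1.07 for the central pair, 0.80 for the rulers and the radial spokes, 0.68 for the other axonemal proteins, 0.45 for the tektins and lumen proteins, 0.51 for the regulatory complex, 0.10 for the assembly factors and -0.20 for the docking genes. Over the libraries, the mean of log2(CPM + 0.5) of the dynein chains was 2.38, 3.17 and 2.9 in the WT lungs and 3.88, 3.61 and 3.51 in the null lungs, and that of the radial spokes was 2.86, 3.59 and 3.37 in WT and 4.02, 4.03 and 4.02 in null lung. For the assembly factors it was 1.56, 2.25 and 2.01 in WT and 2.28, 2.12 and 2.12 in null lung, and for the docking genes 1.3, 2.25 and 2.08 in WT and 2.32, 2.23 and 2.02 in null lung. The genotypes thus overlapped in these last 2 parts and in no other.

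**Figure D3:**
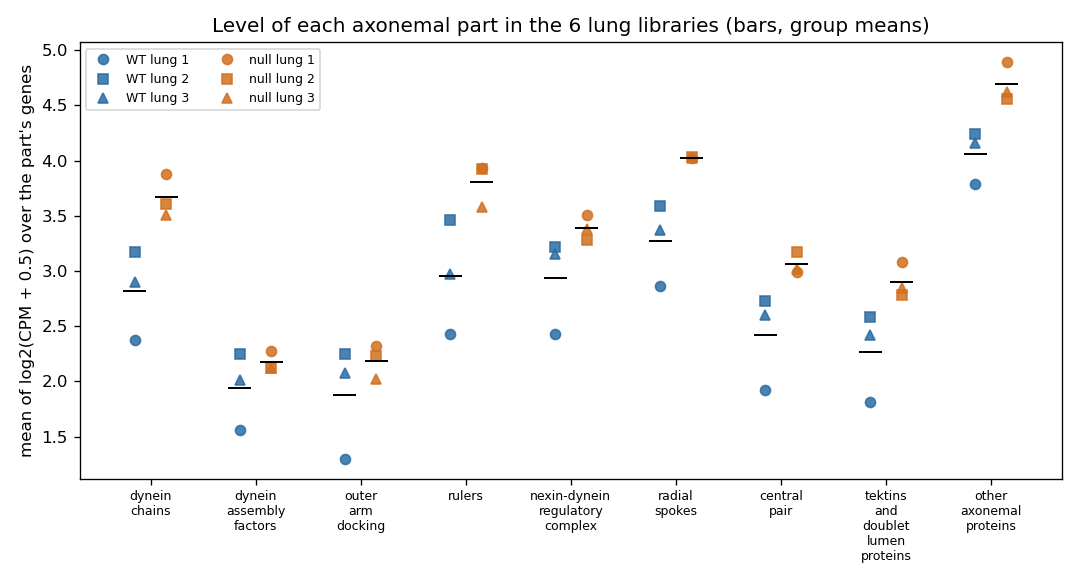
Mean of log2(CPM + 0.5) over the genes of each part (y axis) in the 3 WT lungs (blue) and 3 null lungs (orange), with short black bars for the group means. WT lung 1, the blue circle, is the lowest library in all 9 parts, and the null lungs lie above all WT lungs in every part but the assembly factors and the docking genes.

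WT lung 1 was the lowest WT lung for 41 of the 43 members (95.3%), whereas it was the lowest for 35.4% of all genes tested. The mean of log2(CPM + 0.5) over all 43 members was 2.18 in WT lung 1, 2.94 in WT lung 2 and 2.75 in WT lung 3, and 3.31, 3.18 and 3.14 in the null lungs. The spread of the members within the WT group was thus shared between genes. Without WT lung 1, the median log2 fold change of the members was 0.53 in place of 0.70 and 31 of them remained above 0. Null lung 1 was the highest of all 6 lungs for 17 members (39.5%), against 33.5% of all genes tested.

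Compared per length, as CPM per kb of exon, the members' levels in WT lung spread widely. Tppp3 stood highest at 59.9 CPM per kb, followed by Dynlrb2 at 17.6, Lrrc23 at 6.09, Fam183b at 5.5 and Rsph1 at 4.9. Hydin, the longest member with 18037 exonic bases, was the lowest at 0.162 CPM per kb, below Spef2 at 0.237 and Spag1 at 0.285. Members from both ends of this order lay higher in null lung, such as Lrrc23 and Hydin.

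In WT lung 41 of the 43 members differed from WT liver in a fit of all 12 libraries. Of these, 39 were higher in lung (90.7%, against 32.4% of all genes) and 2 were lower (4.65%, against 30.3%), and 62.7% of all genes were called in either direction. The median log2 difference of the members was 3.43, and 12 members had at most 10 reads over the 3 WT livers together. Dnaaf2 (-0.78 ± 0.16, adjusted p = 0.00144) and Dnai1 (-2.15 ± 0.72, adjusted p = 0.0227) were lower in lung than in liver, while Rsph3a and Rsph4a did not pass the test, at 0.42 ± 0.19 and 0.53 ± 0.48. Lrrc23, at 8.7 to 19.2 CPM in WT lung, had 1 read in the 3 WT livers.

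The change in null lung was set beside the level in WT liver. For the 32 members under 1 CPM in WT liver, the median log2 fold change in null lung was 0.82, and 28 of them had higher means in null lung. For the 11 members at or above 1 CPM the median was 0.04, with 6 higher and 5 lower. Those 5 were Dnal1, Gas8, Tppp3, Dnaaf2 and Rsph3a. The medians without null lung 1 were 0.81, with 28 of the 32 higher, and -0.09, with 5 of the 11 higher and 6 lower. The value of 1 CPM was chosen after these levels had been seen, and the split is a description. Stk36, the lowest value in null lung, stood at 0.218, 0.279 and 0.498 CPM in the WT livers, and Dnai1, among the highest, at 2.32, 7.46 and 7.28 CPM.

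**Figure D4:**
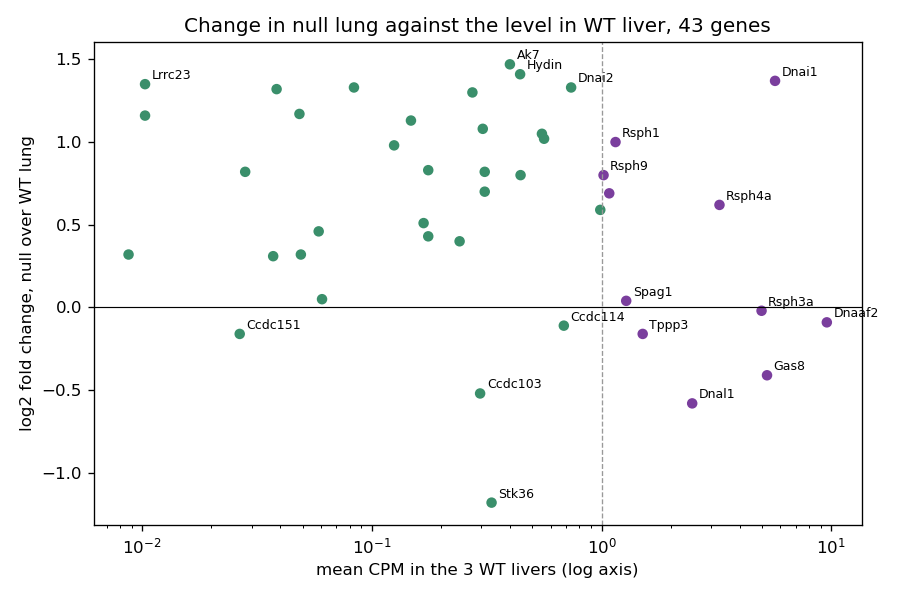
Log2 fold change in null over WT lung (y axis) of the 43 genes against their mean CPM in the 3 WT livers (x axis, log scale). Purple points are the 11 genes at or above 1 CPM in WT liver (dashed line) and green points the 32 genes below it. Of the green points 28 lie above 0, with a median of 0.82, and the purple points have a median of 0.04.

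In liver 24 members passed the filter on low counts, and edgeR called 6 of them in null against WT, 5 higher and 1 lower, in a comparison that called 26.9% of all genes (13.5% higher, 13.4% lower). Of the 24, 3 (Drc1, Wdr78 and Ak7) reached the filter in all 3 null livers and not in all 3 WT livers, so that they were tested through the group where they were high, and nothing is read from the count of higher calls. Of the 17 members with at least 10 counts in every liver, 2 were called higher (Dnai2 and Hydin) and 2 lower (Spag1 and Dnaaf2), where 28.8% of all genes were called. Dnai2 had 37, 21 and 21 reads in the WT livers and 106, 294 and 222 reads in the null livers, a log2 fold change of 3.02 ± 0.43 (adjusted p = 0.00428). Hydin had 15, 11 and 22 reads in the WT livers and 43, 60 and 56 reads in the null livers, a change of 1.79 ± 0.31 (adjusted p = 0.00755). The null livers lay above every WT liver for both, and both were called under each of the alternatives tried. Such separation was common in liver. Over all genes tested, the null livers lay above every WT liver in 22.9% and below in 23.7%. The shares of the 24 members were 20.8% and 16.7%. Drc1 had 4, 11 and 3 reads in the WT livers and 25, 19 and 28 reads in the null livers (2.02 ± 0.55, adjusted p = 0.0321), Ak7 had 18, 16 and 8 reads in the WT livers and 31, 33 and 51 reads in the null livers (1.51 ± 0.44, adjusted p = 0.0389), and Wdr78 had 14, 7 and 12 reads in the WT livers and 24, 28 and 19 reads in the null livers (1.15 ± 0.33, adjusted p = 0.0367). The assembly factor Spag1 had 58, 34 and 46 reads in the WT livers and 25, 15 and 12 reads in the null livers, and fell at a log2 fold change of -1.35 ± 0.34 (adjusted p = 0.0253). The genotypes of these 4 did not overlap either. For Drc1, Ak7 and Wdr78, tested through the null livers, nothing is read from this or from their p-values. All 4 rested on few reads. Only Dnai2 and Hydin were called when WT liver 1, WT liver 3 or null liver 3 was left out, and Dnai2, Drc1 and Hydin when WT liver 2 was. Without null liver 2 the calls were Dnai2, Hydin, Drc1 and Dnaaf2.

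**Figure D5:**
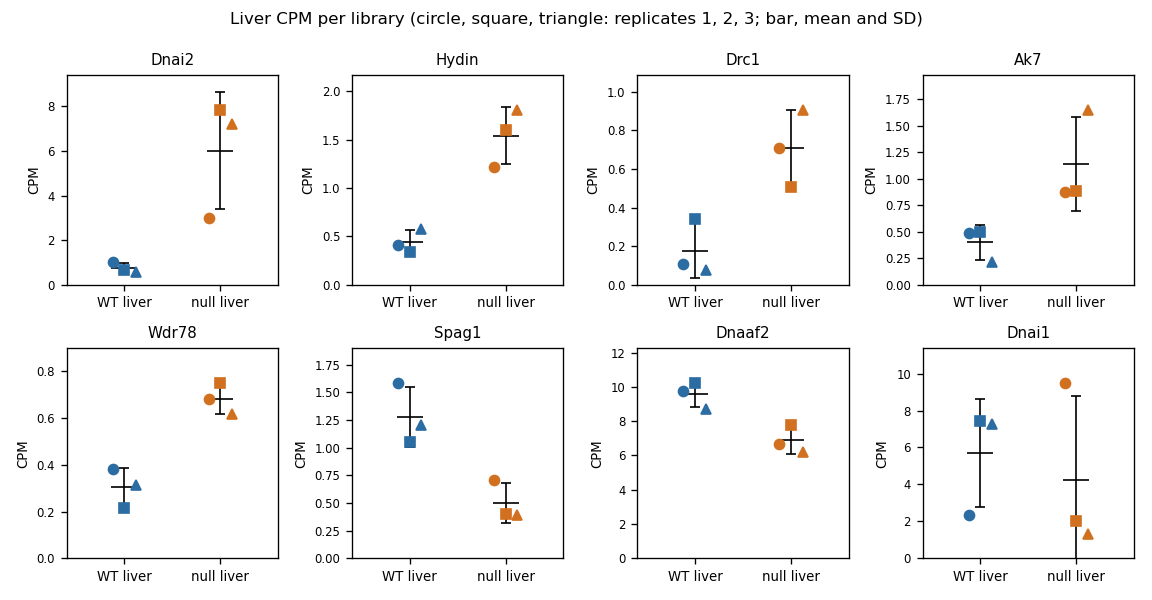
CPM (y axes, from 0) of 8 members in each WT liver (blue) and null liver (orange), with circles, squares and triangles for replicates 1, 2 and 3 and a bar for the mean and SD. Dnai2, Hydin, Drc1, Ak7 and Wdr78 lie higher and Spag1 and Dnaaf2 lie lower in all null livers, while Dnai1 overlaps.

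The other 18 members tested in liver did not pass the test. Dnaaf2 had 358, 329 and 333 reads in the WT livers and 236, 292 and 192 reads in the null livers, with all null livers lower in CPM (-0.47 ± 0.15, adjusted p = 0.0546). Gas8 had 152, 217 and 186 reads in the WT livers and 88, 137 and 117 reads in the null livers (-0.66 ± 0.26, adjusted p = 0.0932) and Ccdc40 had 37, 36 and 32 reads in the WT livers and 15, 28 and 21 reads in the null livers (-0.67 ± 0.31, adjusted p = 0.143), again with all null livers lower. For Gas8 the null mice were thus lower than all WT mice in both tissues, and for Ccdc40 they were lower in liver and higher in lung. Dnal1 had 119, 63 and 86 reads against 74, 37 and 56 reads and Rsph3a had 164, 162 and 207 reads against 193, 185 and 111 reads, in WT against null liver, and Rsph4a had 104, 54 and 201 reads against 142, 90 and 184 reads. Rsph1 had 34, 42 and 47 reads against 44, 45 and 33 reads, Rsph9 had 42, 38 and 28 reads against 43, 48 and 33 reads and Tekt4 had 30, 45 and 39 reads against 36, 28 and 14 reads. These 6 overlapped between the genotypes, with log2 fold changes of -0.61 to 0.34. Ccdc114 (30, 23 and 20 reads against 15, 22 and 15 reads), Lrrc48 (16, 18 and 25 reads against 14, 20 and 13 reads), Kif9 (20, 25 and 14 reads against 15, 11 and 12 reads) and Ak8 (13, 11 and 9 reads against 8, 12 and 5 reads) also overlapped. Stk36, which lay lower in null lung, had 8, 9 and 19 reads against 14, 11 and 10 reads in liver, a difference of 0.02 ± 0.41. Dnaaf3 had 10, 6 and 18 reads against 15, 5 and 11 reads. Enkur had 14, 18 and 15 reads in the WT livers and 15, 3 and 1 reads in the null livers, and Tppp3 had 32, 74 and 52 reads in the WT livers and 739, 22 and 33 reads in the null livers, so that null liver 1, the liver with the muscle markers, stood above the other null livers for both. Without null liver 1 Dnai1 fell (-1.77 ± 0.50, adjusted p = 0.0372), Wdr78 was not called, and 8 members were called in all. In that fit 23.8% of all genes were called. Enkur (-2.85 ± 0.60, adjusted p = 0.0136) and Zmynd10 (2.32 ± 0.53, adjusted p = 0.018) were among the 8. Enkur had passed the filter through the WT livers, and Zmynd10 reached it in 2 null livers and 0 WT livers. Both were thus tested through the group where they were high, and nothing is read from their p-values.

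Dnai1 had 85, 241 and 278 reads in the WT livers and 334, 75 and 40 reads in the null livers. Enho, a gene on the opposite strand that shares 15 exonic bases with Dnai1, had 711, 974 and 1329 reads in the WT livers and 888, 416 and 229 reads in the null livers, and in CPM null liver 1 was the highest and null liver 3 the lowest null liver for both genes, and WT liver 1 the lowest WT liver. In lung Enho ranged from 13.7 to 20.2 CPM in WT and from 16.9 to 22.2 CPM in null mice, with overlap. The part of shared reads in the level of Dnai1 was not tested. Exons of 17 members overlap another gene, and for the 26 that do not the median log2 fold change in lung was 0.80 (0.74 without null lung 1), with 22 of 26 above 0.

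The genotype effect was compared between tissues as an interaction in the fit of all 12 libraries, in which all 43 members were tested. No member was called by edgeR, where 0.371% of all genes were, and 14 members had an unadjusted p under 0.05, of which 12 had the higher effect in lung (against 6.8% of all genes) and 2 the lower one (against 7.06%). Spag17 came closest, at 2.20 ± 0.45 (adjusted p = 0.0753), with 11, 6 and 9 reads in the WT livers and 2, 3 and 2 reads in the null livers, lower in all null livers, and overlapping genotypes in lung. Spag17 did not pass the filter in liver alone, and in the fit of all 12 libraries it was called lower in null liver (-1.79 ± 0.36, adjusted p = 0.018). Its exons share 820 bases with Wdr3 and 516 with Spag17os, both on the opposite strand. The part of shared reads in the level of Spag17 was not tested. Ccdc40, higher in all null lungs and lower in all null livers, differed by 1.26 ± 0.41 (adjusted p = 0.215), and Kif9 by 1.62 ± 0.44 (adjusted p = 0.151). DESeq2 called Spag1 (1.41 ± 0.41, adjusted p = 0.0221) and Kif9 (1.65 ± 0.49, adjusted p = 0.0266), and edgeR without null lung 1 called Spag17 (2.31 ± 0.49, adjusted p = 0.0263) and Kif9 (1.75 ± 0.43, adjusted p = 0.0446). These are 2 of 43 members in each case, all with the higher effect in lung, where DESeq2 called 4.17% of all genes (2% higher, 2.18% lower) and edgeR without null lung 1 called 5% (2.29% higher, 2.71% lower). Of the 5 members called higher in null liver, Dnai2 had a difference between tissues of -1.7 ± 0.58 (adjusted p = 0.237, edgeR) and Drc1 of -1.18 ± 0.69. For Hydin, Ak7 and Wdr78 the difference was -0.39 ± 0.38, -0.04 ± 0.46 and -0.07 ± 0.45.

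The promoters of these genes were searched for sequence features that the choice of members did not use. The X-box, the site bound by RFX factors that control many ciliary genes, has the half-site GTTGCC, and it was searched on both strands in the 250 bases before the RefSeq start (GRCm38.p6) of the 34 members that matched a promoter entry. It was found in 13 of these 34 members (38.2%) and in 11.8% of the 27025 genes in the promoter table (10.4% of its 32851 windows). Stretches of 30 bases are shown 5′ to 3′ on the strand of the gene, with the matched letters in capitals. The first 6 are half-sites of members that lay higher in null lung, with GGCAAC where the half-site is on the other strand.
Hydin (chr8:110266947-110266976, plus strand): cactctgcggttgctgtGGCAACagatggt
Dnai2 (chr11:114727381-114727410, plus strand): ccagggttgctaGGCAACtggtaaactccg
Dynlrb2 (chr8:116504952-116504981, plus strand): acttcctgcctgGTTGCCtagcaacggggg
Lrrc23 (chr6:124779749-124779778, minus strand): cgtcccgcccctGTTGCCataacaacaata
Spag16 (chr1:69826855-69826884, plus strand): actaggcaacgcGTTGCCgtagtaactgcg
Tekt1 (chr11:72361883-72361912, minus strand): cgttgcgtccgtccgGTTGCCatagagacc
Gas8, which lay lower in null lung, also held half-sites, and 1 of them is shown to set beside those above.
Gas8 (chr8:123518769-123518798, plus strand): gacgcactcccgGTTGCCcaggtcccttag
A full X-box, searched as GTTNCC and GGNAAC with 0 to 3 bases between, was found in 2 of the 34 members (5.88%) and in 0.788% of all genes. The capitals in Fam183b, which differed by 1.32 in null lung, include a half-site counted above, whereas Ccdc151, at -0.16, has no half-site of the GTTGCC kind.
Fam183b (chr11:58801961-58801990, minus strand): caagaggaacatccGTTGCCTGGAAACtgt
Ccdc151 (chr9:22002647-22002676, minus strand): cgcgggcgGTTTCCTTGGGAACgtgggcgg
The forkhead motif TGTTTAC, a core that forkhead factors such as Foxj1 bind, was found in 1 of the 34 members, Ak7, the member with the largest log2 fold change in null lung (2.94%, against 3.54% of all genes).
Ak7 (chr12:105705840-105705869, plus strand): agtagagaaatTGTTTACccaagcagagcg
The median log2 fold change in null lung was 0.83 for the 13 members with a half-site and 0.69 for the 21 without (0.88 and 0.57 without null lung 1). Stk36 and Dnal1 held none in this window. Neither did Ak7, Dnai1, Dnali1 and Spef2, which lay higher in null lung, whereas Dnaaf2, at -0.09, held 1. A half-site was held by 11 of the 27 matched members under 1 CPM in WT liver and by 2 of the 7 at or above it. These matches describe letters, and binding was not measured.

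Other axonemal genes outside the 43 were counted from a list. Of 45 such genes 34 were analysed here and 32 were tested in lung, where 30 had higher means in null lung (median log2 fold change 0.89, or 0.77 without null lung 1). None was called with all libraries by edgeR, and 14 rose and none fell without null lung 1, where 18% of all genes were called higher and 19% lower. Of the dynein heavy chains, the motors that the chains above accompany, 11 were tested in lung and 10 had higher means (median 1.24, or 1.10 without null lung 1), their summed level being 37.6 to 60.2 CPM in WT and 101 to 126 CPM in null lung, and 8 rose and none fell in that fit, without null lung 1.

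The median log2 fold change in null lung of 9 genes listed for the multiciliated fate was 0.06 (-0.02 without null lung 1). They are regulators of that fate and Tubb4b, a tubulin gene that itself stood at 0.06 ± 0.17. Of the 9, 5 had higher means, and none was called with all lungs or without null lung 1. Foxj1, the forkhead factor that switches on motile cilia genes, had 37.8, 70.4 and 67 CPM in the WT lungs and 51.6, 50.3 and 48.4 CPM in the null lungs, a log2 fold change of -0.22 ± 0.25 (adjusted p = 0.603). As for the members, WT lung 1 was the lowest of the WT lungs. Rfx2 and Rfx3, of the family that binds the X-box, stood at -0.36 ± 0.15 and 0.06 ± 0.21. Of 9 markers of multiciliated cells outside the members, which include Foxj1 and Tubb4b of that list too, 8 were analysed here and 6 of 8 had higher means in null lung. Without null lung 1, Cdhr3 (7.16 to 10.3 CPM in WT and 19.1 to 21.7 CPM in null lung), Ccdc78 and Ccdc153 (11.3 to 21.6 CPM and 36.7 to 58.2 CPM) rose and none fell. Sec14l3, another of them, stood at 468 to 915 CPM in WT and 127 to 458 CPM in null lung. The summed markers reached 817 to 1360 CPM in WT and 666 to 914 CPM in null lung, and most of each sum came from Sec14l3 and Tubb4b. Tubb4b stood at 287 to 366 CPM in WT and 314 to 379 CPM in null lung, and at 178 to 290 CPM in the livers. The sums therefore say little of the other markers.

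The 5 airway secretory markers summed to 3270 to 3860 CPM in WT and 3580 to 5830 CPM in null lung. Of the 4 that were tested 2 had higher means in null lung, and 3 did without null lung 1. Scgb3a2 stood at 863 to 873 CPM in WT and 1370 to 3140 CPM in null lung and Scgb3a1 at 2.11 to 8.33 CPM and 70.3 to 1810 CPM. In contrast, Scgb1a1 stood at 2150 to 2550 CPM and 251 to 2810 CPM and Cyp2f2 at 234 to 445 CPM and 148 to 389 CPM. The 251 CPM of Scgb1a1 was that of null lung 1, without which its log2 fold change was 0.07 ± 0.16. Mesothelial markers summed to 482 to 684 CPM in WT and 303 to 446 CPM in null lung. The part of these markers in the members' levels was not tested.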

How the data were processed

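RNA of 12 libraries (3 WT and 3 null mice, liver and lung) was analysed. The authors deposited raw counts, 1 whole number for each gene symbol in each library (0 further value columns); the submitters' processing notes name FastQC, STAR 2.5.2a, DESeq2 and mm10, and the counting program, its annotation and its use of strand are not given in the sources used here. Tests were run on the counts by edgeR 4.0.16 in R 4.3.3 (filterByExpr, TMM, quasi-likelihood test, Benjamini-Hochberg adjustment over all genes tested). A call needed an adjusted p under 0.05 and at least a 1.2-fold change. SE was obtained by dividing the log2 fold change by the root of its F value. CPM were scaled by TMM within a tissue, and within all libraries for values per kb. Positions and exons came from GENCODE M21 (GRCm38). The members and the gene lists were chosen with earlier results of these data known.

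Members were named by part, with values in every library for those at the ends of each part, called or testable in liver. The scripts were tested on simulated data. The lowest chi-square per gene between libraries of a group was 15.4, so none was counted as a copy. Replicate numbers come from the titles. Deviations of same-numbered WT and null libraries correlated at -0.065 to 0.164, so the numbers were not taken as pairs there. Those of same-numbered liver and lung correlated at 0.223 to 0.419. The main fits of all 12 libraries still did not pair them, and the pairing entered only as the replicate block among the alternatives. Alternatives were DESeq2 1.42.0, its size factors, upper-quartile factors, 2 count filters (10 counts in every library, 1 count in all), 1 fit of all libraries, limma-voom 3.58.1 with library weights, a replicate block, no minimum fold and leaving out each library. Matching members by listed symbol alone was added after the data were seen. Depth was 26759463 to 42914295 counted reads per library, and the floor of 3 reads covers counting error only.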

Additional observations from a re-analysis of the deposited data

How the results depend on the processing

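Of the 43 members, 31 stayed above 0 and 6 below 0 in null lung under all 14 alternatives of the lung comparison, and 6 took both signs. Members called in lung numbered 0 in the main test, 17 with DESeq2, 9 with all 12 libraries in one fit and 21 with limma-voom and library weights, which gave null lung 1 a weight of 0.0775, and 0 to 22 when a library was left out, the 22 without null lung 1. The shares of all genes called were 0.327% in the main test, 15.1% with DESeq2, 14.1% with all 12 libraries, 31.9% with limma-voom and 37% without null lung 1. A fit with the replicate number as a block called 0 members in lung and 3 in liver (6 without the block), where 23% of all genes were called in liver. Within a tissue this block joined same-numbered WT and null mice, which were not taken as pairs. For the tissue comparisons the block joined liver and lung of the same number and genotype, and the calls, 0 and 41, were those without it. In liver the calls ranged from 2 to 8 when a library was left out, where 11.3% to 23.8% of all genes were called. The median in liver, -0.19, was -0.32 with DESeq2, -0.29 with upper-quartile factors, -0.45 with at least 10 counts in every library, -0.28 with 1 count in all, -0.28 with all 12 libraries, -0.26 with limma-voom and -0.33 to -0.02 when a library was left out. The tissue difference in the genotype effect had 2 members called with DESeq2 (4.17% of all genes) and 0 to 2 when a library was left out (0% to 5% of all genes). The comparison of WT lung with WT liver had 15 called with at least 10 counts in every library, where 17 members were tested and 62.2% of all genes were called. When a library was left out, the part medians in lung that turned or moved by over 1.5 times were those of the assembly factors (-0.04 to 0.45), the docking genes (-0.27 to 0.15), the regulatory complex (0.27 to 0.79) and the tektins and lumen proteins (0.34 to 0.83), each lowest without WT lung 1 and highest without WT lung 2. Of the members with both signs, leaving out a library moved Spag1 from -0.09 to 0.12, Dnaaf1 from -0.04 to 0.76, Lrrc6 from -0.29 to 0.45, Ccdc151 from -0.52 to 0.15, Rsph3a from -0.16 to 0.04 and Tppp3 from -0.56 to 0.01, and limma-voom put Spag1 at -0.07. The cause was not tested. In liver 19 of the 43 members had too few reads for the filter used, and with 1 count in all or with all 12 libraries in one fit all 43 were tested and 4 and 6 called. The shares of all genes called there were 17.2% and 11.9%.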
